A study of Saccharomyces cerevisiae with 15 samples.

Results

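Of the 7126 genes in the deposited expression table of this budding yeast series, 35 encode proteins of the large subunit of the mitochondrial ribosome under the names MRPL1 to MRPL51 and MRP7, and their mRNA levels across the series are described here. They are nuclear genes and were chosen by name, from a list of systematic identifiers. No value entered that rule, but earlier results of these data were known when they were chosen. All 35 had a row in the table, and 34 of them reached 1 FPKM (reads scaled for gene length and for library size) in at least 3 libraries and entered the tests, among 6399 genes in all. The series asks how the transcriptome that depends on Hsf1, the heat shock transcription factor, is shaped by contacts between Hsf1 and the chaperone Hsp70. Saccharomyces cerevisiae cultures in rich YPD medium were grown to mid-log phase at 30 °C. The first group of 3 carried wild-type HSF1 and was moved to 37 °C for 15 min before harvest (wild type at 37 °C). The second carried hsf1-mNmC, with mutations in the amino-terminal and the carboxyl-terminal Hsp70 site (mNmC), the third hsf1-mN, with the amino-terminal site mutated (mN), and the fourth hsf1-mC, with the carboxyl-terminal site mutated (mC). The mutants stayed at 30 °C, as did the fifth group, wild-type HSF1 (wild type at 30 °C), to which the others were compared. Each group had 3 biological replicates, but the labels do not say how the alleles were introduced, how many clones stand behind them or which strain background all groups share. The mutants were not heat shocked, and 15 min was the only time at 37 °C.

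The mitochondrial ribosome translates the few messages encoded by mitochondrial DNA, most of which specify core subunits of the respiratory chain and the ATP synthase. Its RNAs come from mitochondrial DNA, whereas nearly all of its proteins are made in the cytosol from nuclear genes and imported. Some of these proteins have counterparts in all ribosomes, some only in bacterial ones, and some belong to mitochondria alone. In budding yeast, mRNAs of mitochondrial ribosomal proteins are known ligands of Puf3, an RNA-binding protein of the Pumilio family that recognises a short element in the 3′ untranslated region and acts on the stability and translation of its targets.

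By their ribosomal protein names in RefSeq, 14 members belonged to the universal class, 8 to the bacterial class and 13 to the mitochondrial class. The genes lay on 12 chromosomes, with coding lengths of 213 to 1173 bases. A short sequence after the stop codon was common to all of them. The letters TGTANATA, the core of the known Puf3 element written as DNA, were searched on the coding strand in the 300 bases after each stop codon in RefSeq assembly R64. They occurred for 35 of 35 members, against 971 of 5988 genes with such a window (16.2%). On the other strand, where an RNA-binding protein would not read them, the letters (TATNTACA on the coding strand, which can overlap the first form) occurred for 8 members (22.9%) and for 15.9% of genes. Single matches were found for 26 members, 2 matches for 8 and 3 matches for MRPL19, giving 45 in all.

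The sites of MRP7 and of some of the members that stood at the ends of the comparisons below are printed here. Each has 10 bases on each side, 5′ to 3′ on the coding strand, with the 8 matching letters in capitals. They are shown so that the shared letters can be set against the differing responses: MRPL32 and MRPL24 rose most in mNmC, MRPL13 had the lowest value there, MRPL23 had the highest value at 37 °C and MRPL20 the lowest, and MRPL3 and MRPL17 were called in mN.
MRPL32 (chrIII:119207-119234, plus strand): aacttaagccTGTATATAgaaacttaat
MRPL24, first (chrXIII:650857-650884, plus strand): ggttttccccTGTATATAaaaaagcata
MRPL24, second (chrXIII:650881-650908, plus strand): catatctgttTGTACATAtgtaggtatg
MRPL1, first (chrIV:682669-682696, minus strand): cttttttaatTGTATATAtatatatact
MRPL1, second (chrIV:682620-682647, minus strand): tataaaatcaTGTACATAcaaagtaacc
MRPL13 (chrXI:450359-450386, minus strand): tttaatatccTGTACATAtatatactct
MRPL23 (chrXV:612536-612563, plus strand): cttcaatccaTGTATATAtttatctgtt
MRPL20 (chrXI:599050-599077, minus strand): ataacaatcgTGTAAATActactctata
MRPL25 (chrVII:637009-637036, minus strand): tgtctaatcaTGTAAATAattttgtgat
MRP7 (chrXIV:621244-621271, minus strand): taagaatgccTGTAAATAttactatttt
MRPL3, first (chrXIII:323055-323082, plus strand): tttgccatttTGTAGATAgagaactcct
MRPL3, second (chrXIII:323090-323117, plus strand): aatacattctTGTACATAtatatataca
MRPL17 (chrXIV:171335-171362, minus strand): gtcaatcacaTGTAAATAtcattaaatg
The fifth letter, free in the search, was A in 17 of the 45 matches, T in 16, C in 11 and G in 1, the first MRPL3 match. The base 2 positions before the match was C in at least 1 match of 29 of 35 members, as in MRPL32 and MRP7, and a match with C there was found for 4.69% of all genes.

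The first match began 13 to 136 bases after the stop codon, with a median of 48 for members and 67 for all genes with the letters. It lay within 100 bases for 32 members and for 10.6% of all genes. MRPL49, the bL21m protein of the bacterial class, had the nearest match, and MRPL22, the uL22m protein that lines the exit tunnel, had the farthest first match. How much of the window belongs to each transcript was not tested.

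**Figure D1:**
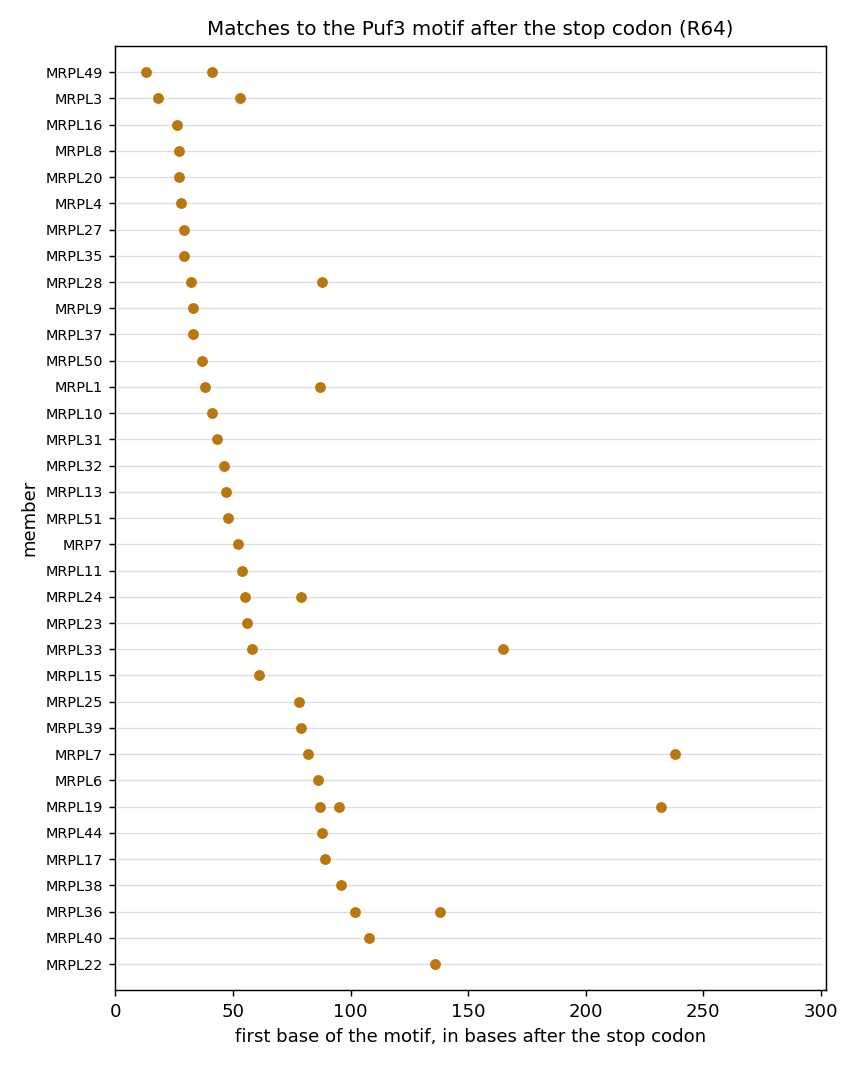
Positions of matches to TGTANATA in the 300 bases after the stop codon, by member (rows) and distance of the first matching base from the stop codon in bases (horizontal axis). Every one of the 35 rows has at least 1 point, and in 32 of them the first point lies within 100 bases.

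The stretch from 250 bases before to 50 bases after each start codon was less uniform. On either strand, the letters TTCNNGAA and GAANNTTC, which are paired units of the heat shock element bound by Hsf1, were each found for 3 of 35 members, against 12.9% and 11.8% of genes. CCCCT, the stress response element of Msn2 and Msn4, was found for 5 members and 21.6% of genes. Of the elements known from ribosome biogenesis genes, AAAAATTT (RRPE) was found for 2 members and 14.2% of genes, and GATGAG (PAC) for 6 members and 20.4% of genes. The forms TTCNNGAA and GAANNTTC overlap in a run of 3 units, and none of the other motifs contains another. No match says only that the letters are not in that window.

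Before the values, 3 libraries need a word. For the library labelled mNmC replicate 3, Spearman correlations across genes averaged 0.921 with the other mNmC libraries and 0.997 with replicates 1 and 2 of wild type at 37 °C. For the one labelled replicate 3 of wild type at 37 °C they averaged 0.918 with its own group and 0.996 with mNmC replicates 1 and 2. CTT1, a catalase gene driven by Msn2 and Msn4, showed the same in the mNmC libraries at 21.4, 22.7 and 979.8 FPKM, and at 37 °C at 1003, 1009.8 and 20.4 FPKM. HSF1 mRNA itself stood at 52.1, 59.4 and 149.9 FPKM in mNmC and at 159, 148 and 67.6 FPKM at 37 °C, against 154, 152 and 158 FPKM in wild type at 30 °C. The members followed the same crossing, with a median absolute log2 difference of 0.0829 between the mNmC-labelled library and the other 37 °C libraries and 0.415 from its own group. For the 37 °C-labelled library it was 0.102 from the other mNmC libraries and 0.258 from its own. Whether the libraries were exchanged was not tested, and members called are counted for 15 libraries as labelled and for 13 libraries, without these 2. Fold changes come from 13 libraries where no number of libraries is given. The third library, mN replicate 1, is described with the mN results, and values without it as well (12 libraries) are given where it changes a count. That setting was chosen after seeing the data. Library depth was 15462618 to 25409519 reads on genes, recovered from the FPKM values.

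**Figure D2:**
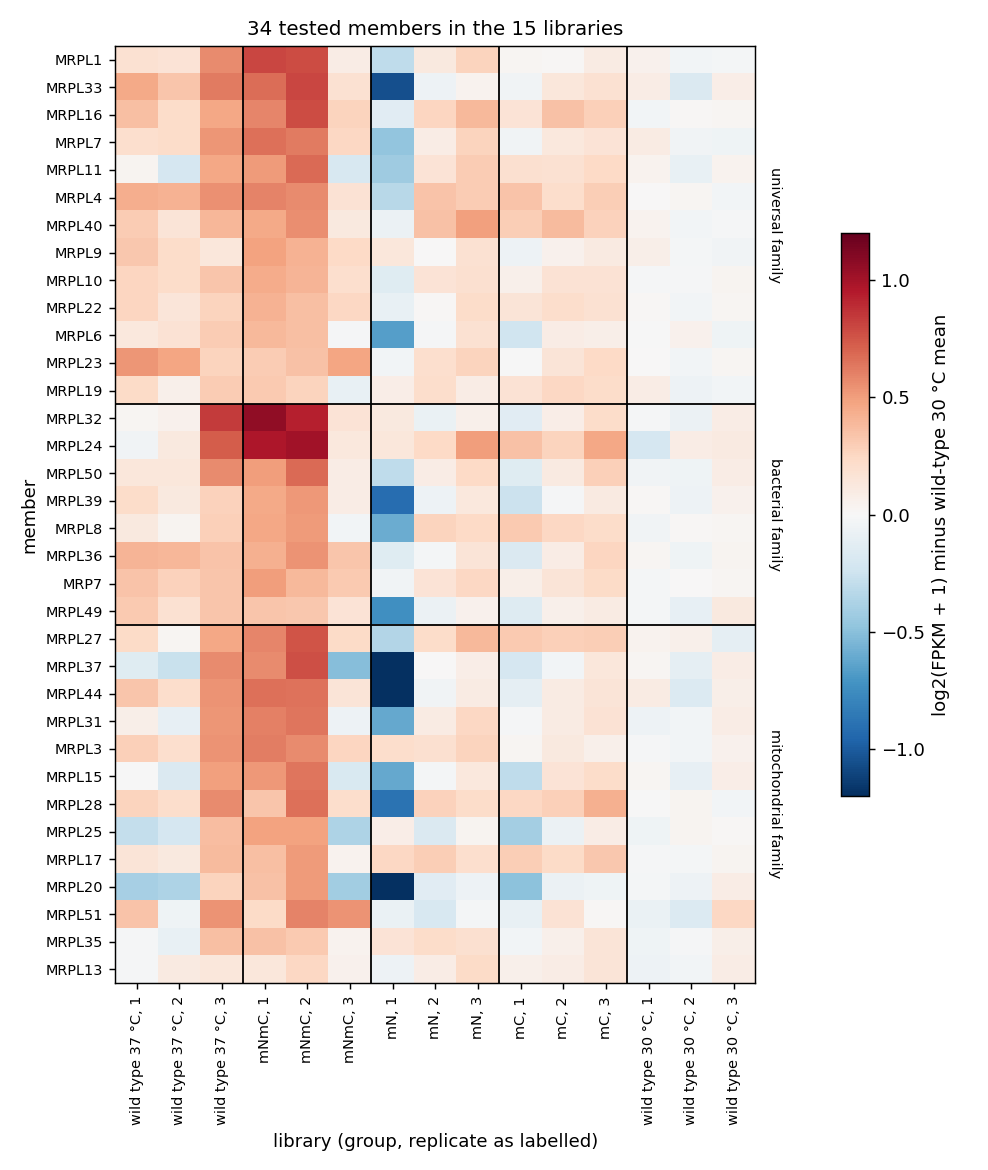
Difference of each of the 34 tested members (rows, by class) in each of the 15 libraries (columns) from its mean in wild type at 30 °C, on the log2(FPKM + 1) scale, with the colour scale ending at 1.2 in either direction. Values are red in mNmC replicates 1 and 2 and in the library labelled replicate 3 at 37 °C, where all 34 members lie above that mean, and mostly blue in mN replicate 1, where 8 do.

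In wild type at 30 °C, the members formed a band of moderate expression with 2 members far below it. Of the 35, 33 averaged over 10 FPKM, from 24.4 for MRPL24 to 212 for MRPL39, an 8.69-fold range, with quartiles of these 33 at 47.9 and 99.4. The median over all 35 was 64.1 FPKM. By class, over all members, it was 62.6 FPKM for universal, 84.6 for bacterial and 59.7 for mitochondrial proteins. MRPL39 (YML009C), the bL33m protein and the shortest reading frame of the set, gave 214, 203 and 219 FPKM. MRPL37 (YBR268W), of the mitochondrial class, gave 194, 178 and 203 FPKM, and MRPL36 (YBR122C), the bL31m protein, gave 141, 134 and 142 FPKM. All values of MRPL36 lay above all those of the next member, MRPL23. The ranges of MRPL39 and MRPL37 overlapped, although MRPL39 was the higher in each library. Of the 32 pairs of neighbours in the order of these 33 levels, 7 did not overlap between replicates. At the other end of the band, MRPL24 (YMR193W), the bL28m protein, gave 21.0, 25.8 and 26.3 FPKM.

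The 2 members below the band were MRPL51 and MRPL38. MRPL51 (YPR100W), of the mitochondrial class, gave 1.29, 1.15 and 1.86 FPKM in wild type at 30 °C, and between 10 and 24 reads in a library. MRPL38 (YKL170W), the uL14m protein of the universal class, gave 0.262, 0.116 and 0.472 FPKM, with 0 to 7 reads in a library, and was not tested. Of the MRPL51 reading frame, 76.4% (323 bases) overlaps YPR099C on the opposite strand in R64, and the table lists YPR099C at 0, 0 and 0.220 FPKM. MRPL19 overlaps YNL184C on the same strand over 113 bases, 23.7% of its length. The sources used here do not say how reads in overlapping genes were assigned, and the levels of MRPL51 and MRPL19 are uncertain for that reason. No R64 gene overlaps MRPL38. R64 holds 6048 of the 7126 identifiers in the table, and overlaps with the others were not searched. The level of MRPL38 is therefore uncertain too. MRPL38 stayed between 0 and 0.784 FPKM in all 15 libraries. All other members had at least 243 reads in every library.

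Many of the members rose in mNmC relative to wild type at 30 °C, with MRPL32, MRPL24 and MRPL1 at the top, and the number that passed the test depended on the libraries and the scaling. In bulk RNA, a change in every cell and a change in some of the cells cannot be told apart. Fold changes below are differences of log2(FPKM + 1) ± SE from limma, with p adjusted by the Benjamini-Hochberg method over all tested genes and called under 0.05. Shares of all genes, here and below, are of genes called, and none is given for an unadjusted p. With 15 libraries as labelled, 12 of 34 tested members were called higher and 0 lower (24.5% of all genes were called higher and 2.41% lower). Of the members, 19 had an unadjusted p under 0.05. With 13 libraries, 24 were called higher and 0 lower, against 40.6% and 7.39% of all genes, and these included the 12. With 12 libraries, 33 were called higher and 0 lower, against 52.8% and 11% of all genes, the exception being MRPL51. The members' median change was 0.49 with 13 libraries, against 0.25 over all genes, and 33 of 34 members lay above the all-gene median.

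The all-gene median shows that the FPKM of a typical tested gene was higher in this group. As FPKM is scaled to library size, it does not show that expression as a whole was higher. When each library was scaled to the same 75th percentile (13 libraries), the all-gene median became 0.03 and the members' median 0.27, and 14 members were called higher and 0 lower, against 20.3% and 16.9% of all genes. With 15 libraries that scaling gave 0 calls among members with limma, against 9.5% of all genes called higher and 6.16% lower. At an unadjusted p under 0.05 there was 1 member. Under that scaling with 15 libraries MRPL13, MRPL19, MRPL20 and MRPL25 had values below 0.

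Among universal-class proteins, 12 of 13 tested were called higher in mNmC with 13 libraries, with a median of 0.51, and 7 with 15. Of all genes, 40.6% were called higher with 13 libraries and 24.5% with 15. MRPL1 (YDR116C), the uL1m protein of the L1 stalk beside the exit site for tRNA, had 108, 106 and 65.3 FPKM in mNmC libraries and 63.5, 59.9 and 60.1 FPKM in wild type at 30 °C. Its log2 fold change was 0.79 ± 0.13 (adjusted p = 0.000532) with 13 libraries and 0.56 ± 0.19 (adjusted p = 0.0481) with 15. Every mNmC library lay above every wild-type library at 30 °C, and the first 2 mNmC libraries lay far above the third. MRPL33 (YMR286W), the uL30m protein, had 170.5, 187 and 122 FPKM in mNmC and 113, 94.6 and 113 FPKM in wild type at 30 °C, a change of 0.74 ± 0.26 (adjusted p = 0.0340) with 13 libraries that was not called with 15 (adjusted p = 0.116). MRPL16, the uL16m protein, changed by 0.69 ± 0.13 (adjusted p = 0.00160) and MRPL7, the uL5m protein, by 0.64 ± 0.17 (adjusted p = 0.00883), and both were called with 15 libraries too, at 0.55 ± 0.15 (adjusted p = 0.0180) and 0.51 ± 0.18 (adjusted p = 0.0489). MRPL19 (YNL185C), the uL11m protein at the base of the factor-binding stalk, was the lowest called member at 0.29 ± 0.08 (adjusted p = 0.00892) with 13 libraries and was not called with 15 (adjusted p = 0.281), from 85.7, 82.5 and 64.4 FPKM in mNmC and 73.2, 65.6 and 67.2 FPKM in wild type at 30 °C. Replicate 3 of mNmC lay below all 3 wild-type ones. The other universal-class members called (MRPL4, MRPL9, MRPL10, MRPL11, MRPL22, MRPL23 and MRPL40) changed by 0.33 to 0.60 with 13 libraries, and MRPL6 was the 1 not called, at 0.38 ± 0.19 (adjusted p = 0.128). With 12 libraries MRPL6 was called too (adjusted p = 0.0043).

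The members that rose most, MRPL32 and MRPL24, were of the bacterial class, and the others of this class had values of 0.33 to 0.59 with 13 libraries. MRPL32 (YCR003W), the bL32m protein whose processing by the mitochondrial m-AAA protease is a step in ribosome assembly, had 87.5, 79.7 and 46.5 FPKM in mNmC, against 40.8, 39.2 and 44.1 FPKM in wild type at 30 °C. Its change was 1.00 ± 0.10 (adjusted p = 2.85e-05) with 13 libraries and 0.72 ± 0.24 (adjusted p = 0.0427) with 15. MRPL24, the bL28m protein, had 48.4, 49.7 and 26.6 FPKM in mNmC and changed by 0.99 ± 0.12 (adjusted p = 9.75e-05) with 13 libraries and 0.70 ± 0.24 (adjusted p = 0.0451) with 15. In both genes the first 2 mNmC libraries were far above all wild-type libraries at 30 °C, and the third was just above the highest of them. MRPL36 had 187, 203 and 176 FPKM in mNmC and changed by 0.48 ± 0.12 (adjusted p = 0.00654) with 13 libraries and 0.43 ± 0.12 (adjusted p = 0.0184) with 15. MRP7 (YNL005C), the bL27m protein, whose bacterial counterpart reaches towards the peptidyl transferase centre, had 113, 104 and 99.6 FPKM in mNmC, against 78.1, 80.05 and 80.9 FPKM in wild type at 30 °C, and changed by 0.44 ± 0.09 (adjusted p = 0.00187) with 13 libraries and 0.40 ± 0.09 (adjusted p = 0.00753) with 15. MRP7 did not overlap between the groups in any library. MRPL39, with 290.3, 305 and 225 FPKM in mNmC, was not called at 0.49 ± 0.23 (adjusted p = 0.106) with 13 libraries, nor were MRPL8 and MRPL49. With 12 libraries MRPL39, MRPL8 and MRPL49 were called higher (adjusted p = 0.00101, 7.80e-06 and 0.0057). With MRPL50, the bL9m protein, at 0.59 ± 0.15 (adjusted p = 0.00864) with 13 libraries, 5 of 8 in this class were called, and 4 with 15. The share of all genes called higher was 40.6% with 13 libraries and 24.5% with 15.

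Of the mitochondrial class, 7 of 13 were called with 13 libraries, with a median of 0.50, and 1, MRPL3, with 15. Beside these stand 40.6% of all genes called higher with 13 libraries and 24.5% with 15. Differences between the classes were not tested. MRPL3 (YMR024W), the mL44 protein with a ribonuclease III-like fold, had 92.0, 88.8 and 71.7 FPKM in mNmC and 59.0, 58.2 and 61.9 FPKM in wild type at 30 °C, and changed by 0.59 ± 0.06 (adjusted p = 2.97e-05) with 13 libraries and 0.48 ± 0.11 (adjusted p = 0.00724) with 15. MRPL27 (YBR282W), the mL41 protein, had 87.4, 98.4 and 67.8 FPKM in mNmC and 59.5, 60.4 and 53.6 FPKM in wild type at 30 °C and changed by 0.67 ± 0.17 (adjusted p = 0.00779), which was not called with 15 (adjusted p = 0.0530). For both genes all 3 mNmC libraries lay above all wild-type libraries at 30 °C. MRPL25 (YGR076C), the mL59 protein, had 49.8, 50.02 and 27.2 FPKM in mNmC and 34.2, 36.4 and 35.9 FPKM in wild type at 30 °C, so that the third mNmC library lay below all wild-type ones, and it was called with 13 libraries at 0.48 ± 0.12 (adjusted p = 0.00822) and not with 15 (adjusted p = 0.532). MRPL17 (YNL252C), the mL46 protein, had 61.8, 68.5 and 49.1 FPKM in mNmC and 47.4, 47.0 and 49.1 FPKM in wild type at 30 °C and changed by 0.43 ± 0.06 (adjusted p = 0.000328), which was not called with 15 (adjusted p = 0.0640). The other members of the class called were MRPL15, the mL57 protein, at 0.58 ± 0.20 (adjusted p = 0.0352), MRPL31, the mL60 protein, at 0.62 ± 0.19 (adjusted p = 0.0220), and MRPL35, the mL38 protein, at 0.33 ± 0.07 (adjusted p = 0.00289).

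The other 6 members of this class were not called with 13 libraries. With 12 libraries all of them but MRPL51 were called higher, at the same fold changes and with smaller SEs. MRPL44, for example, then had 0.66 ± 0.09 (adjusted p = 0.000107) and MRPL37 0.67 ± 0.10 (adjusted p = 0.000145). MRPL37 had 283, 328 and 134 FPKM in mNmC, a value of 0.67 ± 0.31 (adjusted p = 0.0961) with 13 libraries, and MRPL44 (YMR225C), the mL53 protein, had 187, 186 and 131 FPKM in mNmC and 126, 105 and 123 FPKM in wild type at 30 °C, a value of 0.66 ± 0.32 (adjusted p = 0.113). MRPL20 (YKR085C), the mL58 protein, had 85.1, 95.1 and 49.6 FPKM in mNmC and 65.3, 63.5 and 70.7 FPKM in wild type at 30 °C, a value of 0.43 ± 0.31 (adjusted p = 0.266). In these genes the first 2 mNmC libraries lay above all wild-type ones. MRPL28 (YDR462W), the mL40 protein, had 87.0, 109 and 79.7 FPKM in mNmC and 68.4, 70.6 and 67.3 FPKM in wild type at 30 °C, a value of 0.50 ± 0.27 (adjusted p = 0.147). MRPL13 (YKR006C), the mL50 protein, had the lowest value of all members at 0.19 ± 0.09 (adjusted p = 0.1004), from 91.8, 99.0 and 86.3 FPKM in mNmC and 80.1, 81.8 and 88.8 FPKM in wild type at 30 °C, with overlapping groups. MRPL51, at 1.83, 2.66 and 2.51 FPKM in mNmC, was not called either (adjusted p = 0.107).

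**Figure D3:**
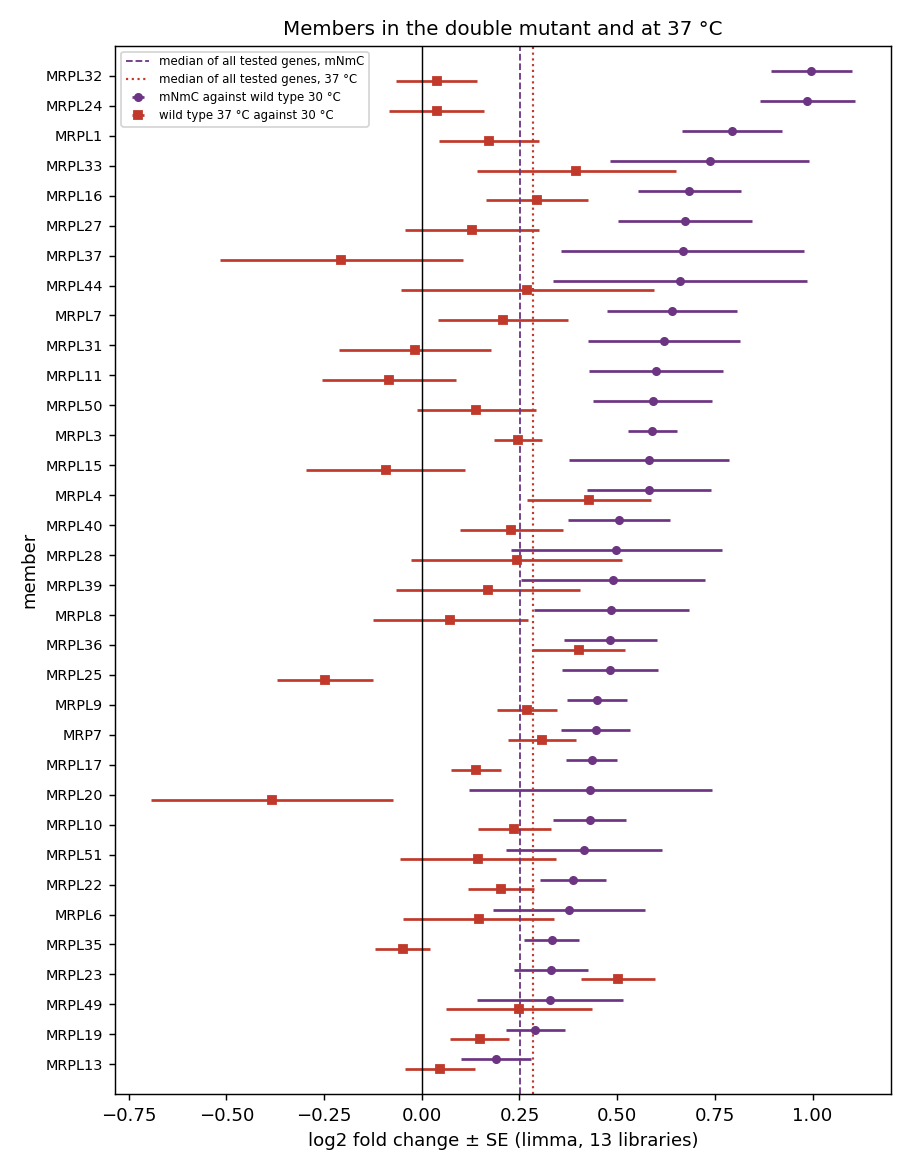
Log2 fold change ± SE of each tested member (rows) with 13 libraries, in mNmC against wild type at 30 °C (circles) and in wild type at 37 °C against 30 °C (squares), with dashed and dotted lines at the all-gene medians of 0.25 and 0.29. In mNmC 33 of 34 circles lie right of their line, and at 37 °C 6 of 34 squares do.

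At 37 °C, compared with 30 °C, few members were called with 15 or 13 libraries, and more with 12. With 15 libraries 5 of 34 were called higher and 0 lower, against 32.1% and 5.97% of all genes. With 13 libraries 7 were called higher and 0 lower, against 47% and 18.9% of all genes, and these included the 5. The members' median was 0.16, against 0.29 over all genes, and 6 of 34 members lay above the all-gene median. With 12 libraries 17 were called higher and 1 lower, against 53.1% and 22.1% of all genes. With each library scaled to the same 75th percentile (13 libraries), the direction turned: 1 member was called higher, MRPL23, and 5 lower, against 34.3% and 30% of all genes, with a members' median of -0.08 and an all-gene median of 0.05. A direction for the members at 37 °C therefore depends on the scaling, and with 13 libraries MRPL23 was called higher under both scalings.

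The 7 members called at 37 °C with 13 libraries were 4 of 13 tested in the universal class, 2 of 8 in the bacterial class and 1 of 13 in the mitochondrial class, and with 15 libraries they were 2, 2 and 1. Of all genes, 47% were called higher with 13 libraries and 32.1% with 15. MRPL23 (YOR150W), the uL13m protein, had 187, 180.1 and 156 FPKM at 37 °C and 129.7, 127 and 132 FPKM in wild type at 30 °C, with no overlap, and changed by 0.50 ± 0.09 (adjusted p = 0.000657) with 13 libraries and 0.42 ± 0.11 (adjusted p = 0.0123) with 15. MRPL4 (YLR439W), the uL29m protein near the exit of the peptide tunnel, had 62.9, 62.4 and 68.3 FPKM at 37 °C and 46.6, 47.2 and 45.3 FPKM in wild type at 30 °C, also with no overlap, and changed by 0.43 ± 0.16 (adjusted p = 0.0329) with 13 libraries and 0.47 ± 0.16 (adjusted p = 0.0396) with 15. MRPL9, the uL3m protein, and MRPL10, the uL15m protein, changed by 0.27 ± 0.08 (adjusted p = 0.00938) and 0.24 ± 0.09 (adjusted p = 0.0419), and neither was called with 15 libraries. In the bacterial class MRPL36, with 185, 183 and 176 FPKM at 37 °C, changed by 0.40 ± 0.12 (adjusted p = 0.0109) with 13 libraries and 0.38 ± 0.12 (adjusted p = 0.0261) with 15. MRP7, with 101, 96.5 and 101 FPKM at 37 °C, changed by 0.31 ± 0.09 (adjusted p = 0.00864) with 13 libraries and 0.32 ± 0.09 (adjusted p = 0.0198) with 15. Both lay above wild type at 30 °C in every library. MRPL3 was the called member of the mitochondrial class, with 73.2, 68.8 and 87.1 FPKM at 37 °C and a change of 0.25 ± 0.06 (adjusted p = 0.00423) with 13 libraries and 0.34 ± 0.11 (adjusted p = 0.0281) with 15.

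The members that rose most in mNmC were not called at 37 °C, and the comparisons share the wild-type libraries at 30 °C. MRPL32 had 42.0, 43.0 and 74.6 FPKM at 37 °C and a value of 0.04 ± 0.10 (adjusted p = 0.761) with 13 libraries. MRPL24 had 23.5, 26.4 and 40.7 FPKM and a value of 0.04 ± 0.12 (adjusted p = 0.801). In both genes replicates 1 and 2 at 37 °C lay between the lowest wild-type library at 30 °C and just past the highest, and replicate 3 stood apart above them. MRPL1 had 69.4, 68.6 and 90.9 FPKM and a value of 0.17 ± 0.13 (adjusted p = 0.257), and MRPL33 had 147, 135 and 165 FPKM and a value of 0.40 ± 0.26 (adjusted p = 0.192), which was not called although all 3 libraries lay above wild type at 30 °C.

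The lowest values at 37 °C lay in the mitochondrial class, where 7 of 13 members were above 0. MRPL20 had 50.2, 51.2 and 80.3 FPKM at 37 °C and a value of -0.38 ± 0.31 (adjusted p = 0.294) with 13 libraries, and it was the member called lower with 12 libraries (adjusted p = 0.00967). MRPL25 had 28.9, 30.6 and 46.0 FPKM and a value of -0.25 ± 0.12 (adjusted p = 0.0986). The first 2 libraries of each lay below all wild-type libraries at 30 °C, and the third lay above them. MRPL37, with 173, 158 and 284 FPKM, had a value of -0.21 ± 0.31 (adjusted p = 0.575) with 13 libraries and 0.05 ± 0.38 with 15. MRPL13, with 82.9, 89.8 and 91.8 FPKM, was among the 4 lowest members with 15 libraries. With 13 libraries its value was 0.05 ± 0.09 (adjusted p = 0.658), above those of MRPL15 (-0.09), MRPL11 of the universal class (-0.08), MRPL35 (-0.05) and MRPL31 (-0.02). With the 75th-percentile scaling (13 libraries) MRPL20, MRPL25, MRPL11, MRPL35 and MRPL13 were the 5 called lower, from -0.63 ± 0.25 to -0.20 ± 0.07.

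**Figure D4:**
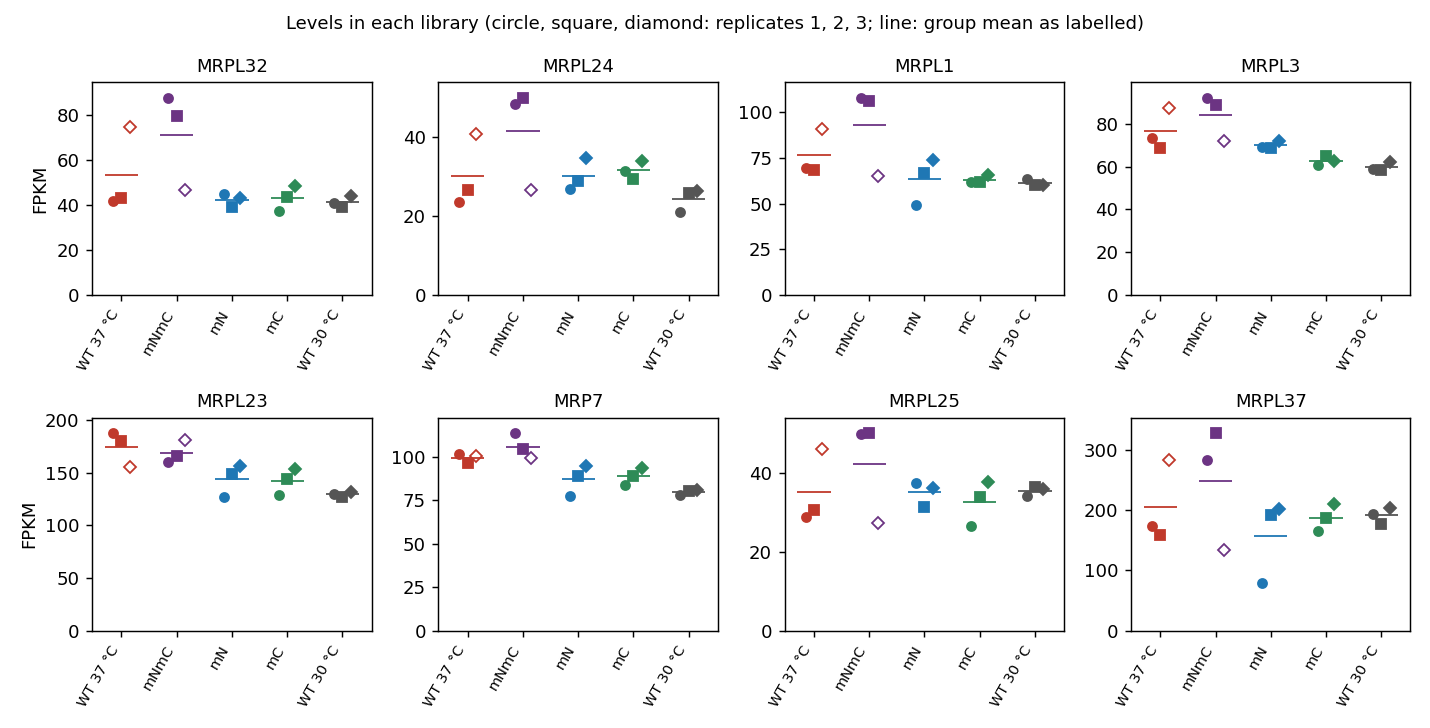
FPKM of 8 members in every library, with groups on the horizontal axis and lines at group means as labelled. Open diamonds are the libraries labelled mNmC replicate 3 and 37 °C replicate 3. For MRPL32 the open diamond in mNmC lies at 46.5 and the group's other libraries at 87.5 and 79.7, and the one at 37 °C lies at 74.6 and the group's other libraries at 42.0 and 43.0.

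Set directly against wild type at 37 °C, mNmC had higher levels of many members. With 15 libraries this comparison called 0 of 34 members in either direction with limma, beside 0% of all genes called higher and 0% lower. No member had an unadjusted p under 0.05. With 13 libraries 14 members were called higher and 0 lower, against 28% and 28.8% of all genes, with a members' median of 0.34 and an all-gene median of -0.003. With 12 libraries 25 were called higher and 1 lower, MRPL23, against 34.2% and 33.6% of all genes. The 75th-percentile scaling (13 libraries) gave 20 higher and 0 lower, against 30.5% and 28.6% of all genes, so the direction did not turn with the scaling here.

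MRPL32 differed most, by 0.96 ± 0.11 (adjusted p = 2.39e-05) with 13 libraries, followed by MRPL24 at 0.95 ± 0.13 (adjusted p = 9.91e-05). MRPL37 differed by 0.87 ± 0.34 (adjusted p = 0.0461), MRPL25 by 0.73 ± 0.14 (adjusted p = 0.000744) and MRPL1 by 0.62 ± 0.14 (adjusted p = 0.00266). With 15 libraries these 5 had values of 0.42 ± 0.24, 0.43 ± 0.24, 0.22 ± 0.38, 0.24 ± 0.23 and 0.26 ± 0.19 in the same order, none called. By class, 8 of 13 mitochondrial, 3 of 8 bacterial and 3 of 13 universal members were called higher with 13 libraries, beside 28% of all genes. MRPL23 was the member with a value below 0, -0.17 ± 0.10 (adjusted p = 0.182), and MRP7, MRPL36, MRPL4, MRPL9 and MRPL10, which were called in mNmC and at 37 °C against wild type at 30 °C, were not called here, with values of 0.08 to 0.19. A value that misses the threshold does not show equal levels.

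In the single mutants few members were called relative to wild type at 30 °C with 15 or 13 libraries, and more with 12 libraries, as given further below. With 15 libraries 0 of 34 members were called in mN and 0 in mC with limma, with 1 and 2 members at an unadjusted p under 0.05. Over all genes 0.422% were called higher and 0.0313% lower in mN, and 0.172% higher and 0.0156% lower in mC. With 13 libraries, 2 members were called higher and 0 lower in mN, beside 12.8% and 5.36% of all genes, and 2 higher and 0 lower in mC, beside 12.3% and 2.45%. Fold changes in mN and mC are the same with 15 libraries, since these groups keep all their libraries, and the SE differs. The 75th-percentile scaling (13 libraries) gave 4 higher and 0 lower in mN, beside 12.5% and 8.19% of all genes, and 0 in either direction in mC, beside 6.47% and 4.92%, so the mC calls that follow were lost under it. At an unadjusted p under 0.05 there were 4 members in mC under that scaling with limma. MRPL17 was called in both mutants, at 0.25 ± 0.06 (adjusted p = 0.0140) in mN, with 57.2, 58.9 and 55.2 FPKM, and at 0.29 ± 0.06 (adjusted p = 0.01001) in mC, with 59.0, 56.3 and 60.3 FPKM. All 6 of these libraries lay above the wild-type libraries at 30 °C.

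MRPL3 was called in mN at 0.23 ± 0.06 (adjusted p = 0.0178), with 69.2, 68.6 and 72.1 FPKM, and in mC, with 60.9, 65.0 and 62.5 FPKM, its value was 0.07 ± 0.06 (adjusted p = 0.430). MRPL24 was called in mC at 0.36 ± 0.11 (adjusted p = 0.0479), with 31.3, 29.3 and 33.9 FPKM, all above wild type at 30 °C. In mN it had 26.7, 28.8 and 34.6 FPKM and a value of 0.29 ± 0.11 (adjusted p = 0.0930). MRPL40 (YPL173W), the uL24m protein near the exit of the peptide tunnel, had 44.1, 59.3 and 65.7 FPKM in mN, 57.2, 60.8 and 56.3 FPKM in mC and 47.8, 45.2 and 46.0 FPKM in wild type at 30 °C, with values of 0.26 ± 0.12 in mN and 0.32 ± 0.12 in mC that were not called. MRPL27, with 72.1, 70.7 and 71.1 FPKM in mC, and MRPL28, with 81.7, 84.2 and 92.8 FPKM in mC, lay above wild type at 30 °C in all 3 mC libraries and were not called, at 0.30 ± 0.15 (adjusted p = 0.215) and 0.32 ± 0.24 (adjusted p = 0.416). At the low end, MRPL20 had 47.1, 63.4 and 64.2 FPKM, MRPL25 26.5, 33.8 and 37.7 FPKM, MRPL39 177, 209 and 229 FPKM and MRPL37 166, 187 and 211 FPKM in mC. The values of these 4 in mC were -0.20 ± 0.28, -0.13 ± 0.11, -0.05 ± 0.21 and -0.03 ± 0.28, none was called, and all 4 overlapped with wild type at 30 °C.

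Within mN, replicate 1 stood apart. In that library 29 of 34 members lay below the mean of the other mN libraries, by a median of -0.48 on the log2(FPKM + 1) scale, against -0.16 over all tested genes, and 15 members were lower by more than 0.5, as were 19.4% of all genes. MRPL44 was the lowest at -1.38, with 45.4, 114 and 126 FPKM in mN. MRPL37 had 79.0, 192 and 202 FPKM, MRPL20 24.9, 60.3 and 63.9 FPKM and MRPL33 50.7, 102 and 110.2 FPKM, each lowest in replicate 1. Short reading frames were lower than long ones: the 13 tested members under 500 bases had a median of -0.73 and the 21 longer ones -0.32. Over all genes of known length, ranked in 5 equal bins, the bin of the shortest (up to 633 bases) had a median of -0.40 and the bin of the longest -0.03. MRPL32 and MRPL25 were higher in replicate 1 than in the other mN libraries. The part of RNA quality or library preparation in this was not tested.

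**Figure D5:**
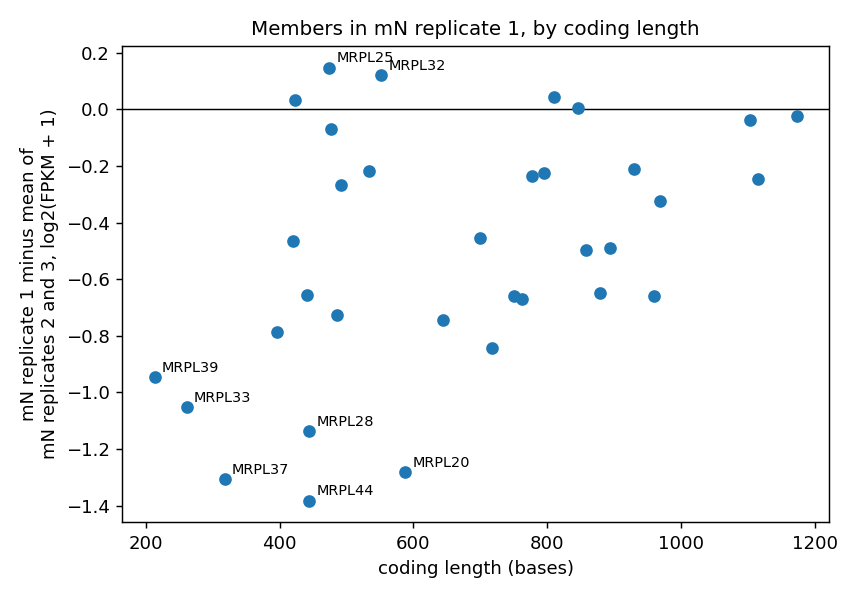
Difference of mN replicate 1 from the mean of mN replicates 2 and 3 (vertical axis, log2(FPKM + 1)) for the 34 tested members, by coding length in bases (horizontal axis). MRPL44, MRPL37 and MRPL20 are lowest, and 29 of 34 points lie below 0.

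Leaving that library out was chosen after seeing the data. As 29 of 34 members were lower in it than in the other mN libraries, leaving it out raises their mN values by construction. Without that library, which also enters the shared estimate of the spread, 15 members were called higher and 0 lower in mN (12 libraries, beside 22.6% and 6.94% of all genes), and 13 higher and 0 lower in mC (beside 26.5% and 6.84%). MRPL40 then had 0.42 ± 0.07 (adjusted p = 0.00100) in mN and 0.32 ± 0.06 (adjusted p = 0.00242) in mC. The members' median in mN was 0.17, against 0.08 over all genes, and in mC 0.09, the same as over all genes.

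The design also lets the effect of the mNmC allele be set against the sum of the effects of mN and mC. With 15 libraries 0 of 34 members were called in this test with limma, beside 3.5% of all genes called higher and 1.19% lower. Of the members, 4 had an unadjusted p under 0.05. With 13 libraries 6 were called higher than the sum and 0 lower, beside 22.1% and 12.8% of all genes. The 6 were MRPL33, MRPL32, MRPL1, MRPL25, MRPL9 and MRPL3, and the largest of them were MRPL33 at 1.00 ± 0.34 (adjusted p = 0.0416) and MRPL32 at 0.91 ± 0.14 (adjusted p = 0.000748). For MRPL32 the single mutants had 44.8, 39.2 and 43.3 FPKM in mN and 37.5, 43.8 and 48.4 FPKM in mC, which overlap wild type at 30 °C. For MRPL33 the value is lower without mN replicate 1, at 0.65 ± 0.13 (adjusted p = 0.00219).

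Other genes of mitochondrial translation were counted in the same fits with 13 libraries, from lists written by hand. Over all genes, 40.6% were called higher and 7.39% lower in mNmC, and 47% higher and 18.9% lower at 37 °C, and the lists' counts are to be read against these shares. Of 10 large-subunit proteins with other gene names, 7 were called higher and 0 lower in mNmC, with a median of 0.48, and 3 higher and 0 lower at 37 °C. IMG1, a large-subunit protein, changed by 1.05 ± 0.27 (adjusted p = 0.00811) in mNmC and IMG2 by 1.01 ± 0.15 (adjusted p = 0.000325), whereas MRP49 was the highest at 37 °C, at 0.82 ± 0.12 (adjusted p = 0.000126). Of 31 small-subunit proteins, 27 were called higher and 0 lower in mNmC, with a median of 0.55, and 7 higher and 0 lower at 37 °C, with a median of 0.11. MRP21 was highest in mNmC at 0.83 ± 0.21 (adjusted p = 0.00841) and MRP10 at 37 °C at 0.66 ± 0.20 (adjusted p = 0.0137). Against wild type at 37 °C, mNmC had 20 of the 31 higher and 0 lower, beside 28% and 28.8% of all genes.

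Of 17 mitochondrial aminoacyl-tRNA synthetases and partner proteins, 16 were called higher at 37 °C with a median of 0.51, and 12 in mNmC with a median of 0.30, with 0 lower in either. Of 10 translation factors, 8 were called higher and 1 lower at 37 °C, with a median of 0.62, and 3 higher and 0 lower in mNmC, with a median of 0.26. MEF2, a homologue of elongation factor G, changed by 0.85 ± 0.08 (adjusted p = 2.22e-06) at 37 °C and had a value of -0.05 ± 0.08 (adjusted p = 0.632) in mNmC, whereas RRF1, the mitochondrial ribosome recycling factor homologue, changed by 0.74 ± 0.09 (adjusted p = 9.75e-05) in mNmC. Of 8 ribosome assembly genes, 6 were called higher at 37 °C and 8 in mNmC, with 0 lower. The highest at 37 °C was MRM2, an rRNA methyltransferase, at 1.41 ± 0.10 (adjusted p = 2.47e-07). Of 16 activators of mitochondrial mRNAs, 10 were called higher at 37 °C and 14 in mNmC, with 0 lower. RPO41, the mitochondrial RNA polymerase, was called in opposite directions, at 0.72 ± 0.08 (adjusted p = 1.05e-05) at 37 °C and -0.48 ± 0.08 (adjusted p = 0.000685) in mNmC. The 8 mitochondrially encoded genes looked for in the table did not reach the level for testing.

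These counts also depended on the libraries and the scaling. With 15 libraries, the genes called higher in mNmC were 2 of 10 other large-subunit proteins, 8 of 31 small-subunit proteins, 12 of 17 aminoacyl-tRNA synthetases and partners, 2 of 10 translation factors, 6 of 8 assembly genes and 11 of 16 activators, beside 24.5% of all genes. At 37 °C they were 3, 4, 12, 2, 3 and 10 in the same order, beside 32.1%, with 0 lower in any list in either comparison. IMG1 was not called in mNmC with 15 libraries, and RPO41 in neither comparison. With 13 libraries and the 75th-percentile scaling, the lists had 2, 18, 5, 2, 2 and 3 called higher in mNmC and 0 lower, beside 20.3% and 16.9% of all genes. At 37 °C under that scaling, 1, 2, 10, 6, 1 and 5 were called higher and 0, 10, 1, 1, 2 and 0 lower, beside 34.3% and 30%, so that the small-subunit list, like the members, had more called lower than higher.

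The Puf3 letters were common in these lists too, at 10 of 10 other large-subunit genes, 30 of 31 small-subunit genes and 16 of 17 aminoacyl-tRNA synthetase genes, and at 7 of 10 translation factors. PUF3 mRNA had 32.9, 31.3 and 18.8 FPKM at 37 °C, 19.0, 18.7 and 32.1 FPKM in mNmC and 13.7, 14.1 and 12.6 FPKM in wild type at 30 °C. It changed by 1.197 ± 0.12 (adjusted p = 3.58e-06) at 37 °C and 0.46 ± 0.12 (adjusted p = 0.00787) in mNmC with 13 libraries, and by 0.95 ± 0.22 (adjusted p = 0.00783) and 0.70 ± 0.22 (adjusted p = 0.0364) with 15. With 13 libraries, among the 924 other tested genes with the letters, 47.6% were called higher in mNmC with a median of 0.28, and among the 4846 without them 41.1% were called higher with a median of 0.23. At 37 °C these groups had medians of 0.21 and 0.25. A link between the letters and the members' levels was not tested.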

How the data were processed

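The authors deposited FPKM values for 7126 genes in 15 libraries, made with Bowtie2 2.2.3, TopHat2 2.0.12 and HTSeq 0.6.1, per the submitters' processing notes. The genome build was not given in the sources used here, nor were annotation, strand setting and read filters. Per the labels' protocols, RNA was taken with hot phenol, selected on oligo(dT) and copied with random hexamers, with no strand marking stated. FPKM times R64 gene length gave whole reads for 99.87 to 99.89% of 5684 single-exon genes (within 0.01 read). FPKM values near 1 rest on few reads. RefSeq R64 matched 6048 identifiers.

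The fit used log2(FPKM + 1) of 6399 genes that reached 1 FPKM in 3 or more libraries, which understates changes of low genes. A mean per group was fitted with limma 3.58.1 (R 4.3.3, trend, 10 residual degrees of freedom), tested on simulated data, and p was adjusted over all tested genes in each of 6 comparisons. The simulated libraries had independent noise and correct labels, so they do not check the fit where libraries stand apart. Sequences were searched in Python 3.11.15 with pandas 2.3.3 and numpy 2.4.6, and plots drawn with matplotlib 3.10.9.

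Members, lists and tests were chosen with earlier results of these data known, and so was the setting with 13 libraries. The setting with 12 libraries was chosen after seeing the data. Values in every library were given for MRP7, for the 3 highest and 3 lowest members in wild type at 30 °C and for the 4 highest and 4 lowest in each comparison with it, and values for other lists from up to 3 at each end. Alternatives were 75th-percentile scaling, a pseudocount of 0.1, no trend, filters that kept 6780 genes (none) or 5638 (10 FPKM), the groups compared alone, a replicate block and leaving out each library. Comparisons with wild type at 30 °C share its 3 libraries.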

Additional observations from a re-analysis of the deposited data

Results flagged for a closer look

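With 13 libraries, 6 of 34 tested members were higher in mNmC than the sum of the single-mutant effects, by the interaction test in limma, beside 22.1% of all genes called higher in that test, so the members' share was not above that of all genes. The interaction was 1.002 for MRPL33, 0.908 for MRPL32, 0.724 for MRPL1, 0.630 for MRPL25, 0.311 for MRPL9 and 0.294 for MRPL3, on the log2(FPKM + 1) scale. Without mN replicate 1 as well, the values were 0.651, 0.948, 0.558, 0.680, 0.325 and 0.286 in the same order, with adjusted p of 0.0002137 to 0.024. With 15 libraries they were 0.818, 0.631, 0.490, 0.346, 0.240 and 0.185, with adjusted p of 0.203 to 0.606.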

How the results depend on the processing

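Counts of called members follow as totals in either direction. The shares of all genes called are given above for part of these settings. For the others, a count shows only how calls move with the processing and is not a result about the members. At 37 °C against wild type at 30 °C (5 with 15 libraries) they were 0 with 75th-percentile scaling, 3 with the replicate block, 6 with 13 libraries and 12 with 12 libraries under that scaling (mostly lower), and 18 with 12 libraries. In mNmC (12) they were 0 with that scaling, 24 with 13 libraries, 33 with 12, and 25 with 12 and the scaling. In mN (0) they were 2 with 13 libraries, 4 with 13 and the scaling, 15 with 12, and 7 with 12 and the scaling. In mC (0) they were 2 with 13 libraries, 0 with 13 and the scaling, 13 with 12, 9 with 12 and the scaling, and 11 with the groups compared alone. For mNmC against 37 °C (0) they were 14 with 13 libraries, 20 with the scaling as well, 26 with 12 and 30 with 12 and the scaling. For the interaction (0) they were 6, 8, 13 and 13 in those settings. Leaving out 1 library gave 0 to 11 at 37 °C and 3 to 19 in mNmC, and 0 to 0 in the others. At 37 °C it gave 0 without 37 °C replicate 1, 2 without 37 °C replicate 2, 9 without mNmC replicate 3, 11 without mN replicate 1, and 1, 1 and 2 without replicates 1, 2 and 3 of wild type at 30 °C. In mNmC it gave 6 and 4 without mNmC replicates 1 and 2, 19 without mN replicate 1, and 4, 3 and 6 without replicates 1, 2 and 3 of wild type at 30 °C. The replicate block gave 3 at 37 °C, 8 in mNmC and 0 in the other comparisons. Of 30 correlations between same-numbered libraries, 3 exceeded 0.1, and those between 37 °C and mNmC were -0.81, -0.82 and -0.95. Each of these groups holds a library that stands apart, so its correlations cannot show whether the numbers pair the libraries. Pairing by number was not tested further.

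Of 612 refits of named members' fold changes, 486 kept direction and side of the threshold, 46 passed it only there, 53 lost it and 27 changed sign. At 37 °C MRPL37 was -0.18 with the scaling, -0.21 with 13 and 12 libraries and -0.46 with 13 and 12 libraries and the scaling, and MRPL13 was -0.15 with the scaling and -0.20 with 13 and 12 libraries and the scaling. In mNmC with the scaling MRPL13 was -0.0933, MRPL20 -0.0858, MRPL19 -0.0720 and MRPL25 -0.0353, and with 13 and 12 libraries and the scaling MRPL13 was -0.0402. In mN with 12 libraries MRPL44 was 0.0293 and MRPL37 0.0408. Leaving out 1 library, the values ran between -0.25 and 0.0805 for MRPL25 and -0.21 and 0.21 for MRPL37 at 37 °C, and between -0.0311 and 0.43 for MRPL20 in mNmC. In mN they ran between -0.70 and 0.0293 for MRPL44 and -0.63 and 0.0408 for MRPL37, and in mC between -0.24 and 0.00938 for MRPL25, -0.14 and 0.0482 for MRPL39 and -0.12 and 0.0517 for MRPL37. The cause was not tested. MRPL51 rests on 10 to 24 reads in a library.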
